A study of Mus musculus with 2 samples.

Results

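The 10 genes described here encode the apical protein uptake machinery of the proximal tubule, in which the receptors megalin (*Lrp2*) and cubilin (*Cubn*) retrieve filtered proteins from the tubular fluid. They were chosen by name, as *Lrp2*, *Cubn*, *Amn*, *Lrpap1*, *Folr1*, *Dab2*, *Myo6*, *Clcn5*, *Ocrl* and *Ehd1*, from the 19829 genes with a value in the expression table, and all 10 were listed. Messenger RNA had been sequenced from whole kidney tissue in 2 libraries, 1 of wild-type kidney (WT+AKI) and 1 of *Inmt* transgenic kidney (TG+AKI). AKI stands for acute kidney injury. The study's methods do not state how many mice went into each library. Per the study's methods both groups were mice of the C57BL/6 background that received voclosporin, a calcineurin inhibitor, by daily intraperitoneal injection (30 mg/kg) over 2 weeks, when they were 8 to 10 weeks old. Both then underwent bilateral ischemia–reperfusion (I/R), and kidneys were harvested at 14 weeks of age. The transgenic line overexpresses *Inmt*, which encodes indolethylamine N-methyltransferase, in proximal tubules, and the wild-type group consisted of control littermates. The labels disagree with this account in 2 places, since they state that no treatment was given and call the transgenic mice conditional knockouts as well. The comparison addressed how kidney transcripts differed between the genotypes under the same drug and the same injury.

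Proximal tubule cells take up albumin, vitamin carriers, hormones and enzymes by clathrin-mediated endocytosis at the base of the brush border. Megalin spans the membrane, whereas cubilin is a peripheral protein that needs the membrane protein amnionless (*Amn*) to reach the surface, and the cubilin–amnionless complex is internalized with the help of megalin. Inside the cell the endosome is acidified, the cargo is passed on to lysosomes and the receptors are recycled. Loss of this system gives low-molecular-weight proteinuria, as in Dent disease and Lowe syndrome, which arise from mutations in *CLCN5* and *OCRL*.

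The values are reads per gene scaled by the authors for library size, and whole reads were recovered from them. The libraries held 38542764 reads (WT+AKI) and 36427421 reads (TG+AKI). *Inmt*, the overexpressed gene, stood at 10.4 in the wild-type library and 402.8 in the transgenic one, the direction that the transgenic label gives. The study also reports that *Inmt* staining fell in wild-type kidneys under the drug and I/R, so this direction alone does not test the genotype. The kidney markers *Slc34a1* (proximal tubule) and *Umod* (thick ascending limb) were present in both libraries. With 1 library per group there was no spread between animals, so replicates check none of the differences below and genotype gets no p-value. Where a pair of values is given, WT+AKI comes first. Brackets hold 95% Clopper-Pearson intervals of the ratio of values, TG+AKI over WT+AKI, computed from the reads. The intervals cover counting error only. Reads carried no molecular identifiers, so copies of one molecule count as separate reads and the intervals may be too narrow even for that. Differences are of log2(value + 1), TG+AKI minus WT+AKI. Comparison was limited to the 10294 genes that reached a value of 10 in either library, and all 10 endocytosis genes reached 10 in both libraries.

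All 10 genes had higher values in TG+AKI than in WT+AKI as deposited, although *Clcn5* and *Ocrl* were lower once both libraries were scaled to equal totals, and *Clcn5* also with a median ratio of 1. The 5 receptor and cargo genes, *Lrp2*, *Cubn*, *Amn*, *Lrpap1* and *Folr1*, differed more than the 5 adaptor, motor and endosomal genes. This grouping was made with earlier results of these data known, so the contrast is a description and not a test. At least 2-fold higher on the log2(value + 1) scale were 3 of the 10 genes, *Lrp2*, *Cubn* and *Folr1*, against 5.74% of all compared genes. None of the 10 was at least 2-fold lower, against 7.12% of all compared genes. At the smaller limit of 1.5-fold, 5 of the 10 were higher, against 14.0% of all genes, and 0 were lower, against 14.3%. A higher value of any size was found for 51.2% of all compared genes. The median difference was 0.63 over the 10 genes, beside 0.01 over all compared genes. It was 1.26 over the 5 receptor and cargo genes and 0.38 over the 5 others. The receptor and cargo group holds receptor, anchor and chaperone genes, and genes of vitamin carrier proteins are listed apart below. Reads were also set against each other by an exact binomial test, which speaks of the 2 libraries alone. After Benjamini-Hochberg adjustment 8291 genes, or 80.5% of those compared, lay under 0.05, all 10 endocytosis genes among them, and nothing is read from a test that most genes pass. With equal totals the median difference of all compared genes moved to -0.26. *Folr1* then came just under 2-fold, at 0.99, and *Lrpap1* under 1.5-fold, at 0.53. With that scaling the share of higher genes among all genes changed at least 2-fold went from 44.6% to 23.9%, and with the median ratio of well-expressed genes set to 1 it was 33.4%.

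**Figure D1:**
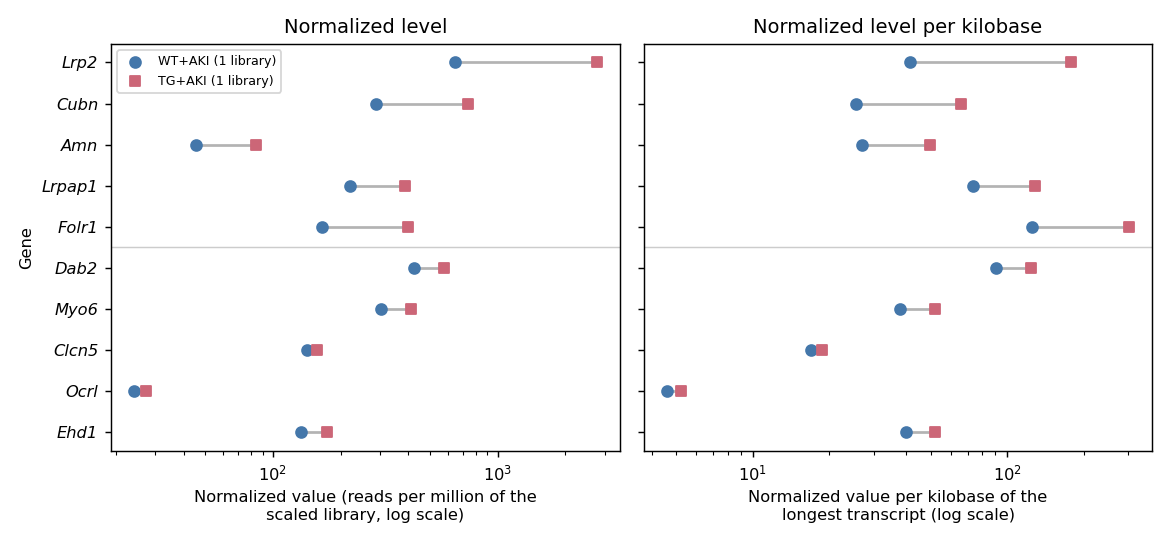
Normalized value (left, log scale) and normalized value per kilobase of the longest transcript (right, log scale) of the 10 genes, with a circle for the WT+AKI library and a square for the TG+AKI library. The 5 receptor and cargo genes above the line lie further apart than the 5 genes below it, and *Lrp2* shows the widest gap, 644.3 against 2754.

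Megalin showed the largest difference of the group. *Lrp2* (gene ID 14725, chr2:69424340-69586065 on the minus strand, GRCm38) encodes a giant member of the low-density lipoprotein (LDL) receptor family that binds a broad range of filtered proteins. In WT+AKI it stood at 644.3, from 27315 reads, while in TG+AKI 91194 reads gave 2754. This is a ratio of 4.27 [4.22 to 4.33] and a log2 difference of 2.09. Of the 10294 compared genes, 99 had a larger difference, and of the 2179 genes that reached 100 in the higher library, 51 did. *Lrp2* alone took 0.0709% of the reads in WT+AKI and 0.250% in TG+AKI. Of the summed value of the 10 genes it made up 27.0% in WT+AKI and 48.2% in TG+AKI. The sum of the other 9 genes was still higher in TG+AKI, at 1743 and 2956, a ratio of 1.70, whereas the sum of all 10 had a ratio of 2.39.

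Cubilin and amnionless form one receptor complex, and their transcripts differed to unequal degrees. *Cubn* (gene ID 65969, chr2:13276338-13491813, minus strand) encodes the receptor for intrinsic factor with vitamin B12, for albumin and for the vitamin D-binding protein. It stood at 287.3 in WT+AKI but at 740.1 in TG+AKI (12180 and 24510 reads), with a ratio of 2.58 [2.52 to 2.63]. *Amn* (gene ID 93835, chr12:111271095-111276426, plus strand), which anchors cubilin in the membrane, had values of 45.5 and 84.3 (1931 and 2791 reads). Its ratio of 1.85 [1.75 to 1.96] was below that of *Cubn*, and the intervals did not overlap. Part of the *Cubn* exons, 2.46% of their bases, overlaps an antisense transcript, and the sources used here do not state whether reads were counted by strand.

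The sequence around or just upstream of the start of these 3 receptor genes is shown because they stand at the head of the pathway. Their shared direction does not set them apart, since all 10 genes were higher in TG+AKI as deposited. The lines give the 250 bases before the RefSeq start, 5′ to 3′ on the strand of the gene, from RefSeq (GRCm38.p6). Capitals mark GGGCGG (the GC box, bound by Sp and Krüppel-like factors) and CAAAG (the core of hepatocyte nuclear factor 4 sites), each on either strand. The RefSeq starts differ from the gene ends given above, so that the *Lrp2* window reaches into the GENCODE gene and the *Cubn* window begins some way outside it. The windows lie at chr2:69586030-69586279 for *Lrp2*, chr2:13491877-13492126 for *Cubn* and chr12:111270846-111271095 for *Amn*.
Lrp2: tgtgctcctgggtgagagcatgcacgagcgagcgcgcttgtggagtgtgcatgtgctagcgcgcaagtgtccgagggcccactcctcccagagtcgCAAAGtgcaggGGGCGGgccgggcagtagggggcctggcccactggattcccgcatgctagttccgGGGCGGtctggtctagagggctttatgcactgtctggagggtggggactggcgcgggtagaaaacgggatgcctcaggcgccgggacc
Cubn: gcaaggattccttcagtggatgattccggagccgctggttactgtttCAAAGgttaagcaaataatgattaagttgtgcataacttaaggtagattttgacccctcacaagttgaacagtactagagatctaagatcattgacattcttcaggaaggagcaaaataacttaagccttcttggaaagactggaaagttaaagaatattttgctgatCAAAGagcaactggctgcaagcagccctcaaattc
Amn: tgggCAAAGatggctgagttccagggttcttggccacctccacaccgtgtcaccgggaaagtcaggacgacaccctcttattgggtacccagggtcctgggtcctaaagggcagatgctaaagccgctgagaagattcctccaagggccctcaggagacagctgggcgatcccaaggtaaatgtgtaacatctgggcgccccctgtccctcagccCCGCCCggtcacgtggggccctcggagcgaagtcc

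The windows differed in base composition, with 66.4% G and C in *Lrp2*, 61.2% in *Amn* and 39.6% in *Cubn*, beside a median of 52.4% over the 32851 promoter windows of the RefSeq table. *Lrp2* held 2 GC boxes and *Amn* 1, whereas *Cubn* held 0. Windows were given for 8 of the 10 genes, 10 windows in all, with *Folr1* and *Ehd1* the exceptions. A gene was counted if any of its windows held the word, whereas the background is a share of single windows. The 2 measures are therefore not alike. CAAAG occurred in at least 1 window of all 8 genes, and in 48.6% of all promoter windows, so that it is a common word. GGGCGG occurred in 6 of the 8 genes and in 32.7% of all windows. Of 5 further motifs searched on both strands, CAAAGTCCA (which contains CAAAG) and TGACCT were in none of the 8 genes and in 0.384% and 14.0% of all windows. GTTAAT was in *Dab2* (6.43% of all windows), TATAAA in *Clcn5* (12.4%), and CCAAT in *Myo6* and *Amn* (33.9%). These matches are letters in a window and not binding sites.

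The chaperone and the folate receptor were higher as well. *Lrpap1* (gene ID 16976, chr5:35091501-35105766) encodes the receptor-associated protein, which escorts megalin through the endoplasmic reticulum and keeps ligands from binding too early. Its values were 219.8 and 385.8, on 9320 and 12777 reads, with a ratio of 1.76 [1.71 to 1.80]. The chaperone thus differed less than its client megalin. *Folr1* (gene ID 14275, chr7:101858331-101870788) encodes the lipid-anchored folate receptor of the brush border. It stood at 165.3 in WT+AKI against 397.4 in TG+AKI (7009 and 13160 reads), a ratio of 2.40 [2.33 to 2.48] and a log2 difference of 1.26. Among the receptor and cargo genes *Lrp2* was highest in its ratio, followed by *Cubn*, *Folr1*, *Amn* and *Lrpap1*. The intervals of *Amn* and *Lrpap1* overlapped, and those of the other neighbours in this order did not.

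*Dab2* and *Myo6*, which act at the clathrin-coated pit, differed less than the receptor and cargo genes. Their differences still exceeded those of 80.9% (*Dab2*) and 81.3% (*Myo6*) of all compared genes. *Dab2* (gene ID 13132, chr15:6299788-6440712) encodes the adaptor that links the megalin tail to clathrin. Its values were 423.5 and 577.0, a ratio of 1.36 [1.33 to 1.39]. *Myo6* (gene ID 17920, chr9:80165031-80311729) encodes the actin motor that binds Dab2 and moves coated vesicles away from the microvilli. Its values were 301.2 and 413.1, a ratio of 1.37 [1.34 to 1.41] whose interval overlapped that of *Dab2*. Some 2.87% of the exonic bases of *Dab2* overlap a pseudogene on the other strand. *Dab2* is also transcribed in macrophages. Of 9 macrophage markers, counted without the filter on low values, 7 were lower in TG+AKI and 2, *Csf1r* (37.5 and 43.0) and *Mrc1* (2.67 and 4.26), were higher, both named after their values were seen. The summed level of the 9 was 179.5 (WT+AKI) against 84.8 (TG+AKI). The defining marker *Adgre1* had values of 10.9 and 4.14. The part of these cells in the *Dab2* value was not tested.

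The endosomal genes were nearest to equality. *Clcn5* (gene ID 12728, chrX:7153810-7319358) encodes the chloride–proton exchanger of endosomes. It had values of 142.0 and 156.5, a ratio of 1.10 [1.06 to 1.14]. *Ocrl* (gene ID 320634, chrX:47912387-47965868) encodes a phosphatase that removes phosphate from membrane phosphoinositides on coated vesicles and endosomes. It had the lowest value of the group, 24.1 against 27.3 (1021 and 904 reads), and its ratio was 1.13 [1.04 to 1.24]. For both genes the scaling of the libraries decided the direction. *Ehd1* (gene ID 13660, chr19:6276725-6300096) encodes an ATPase that shapes recycling endosomes. Its values were 133.8 and 174.3, a ratio of 1.30 [1.26 to 1.35].

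**Figure D2:**
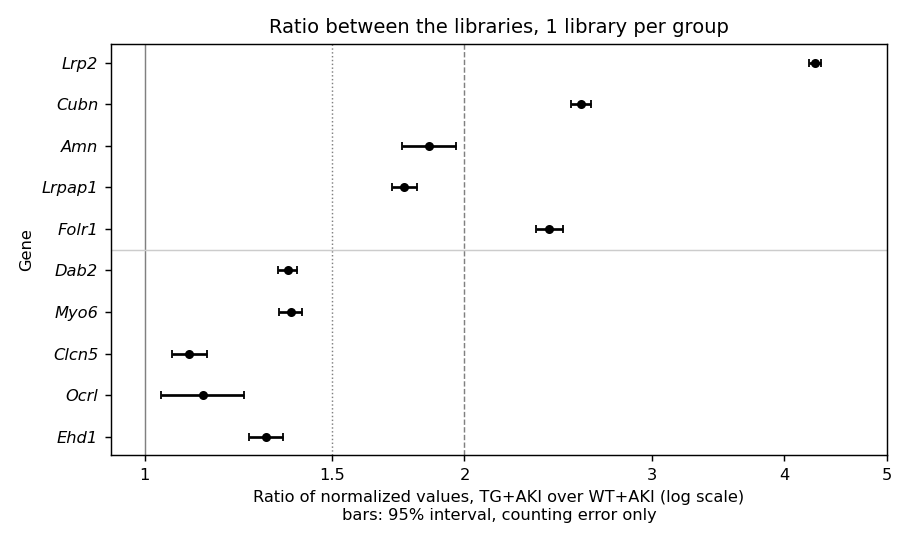
Ratio of the normalized values, TG+AKI over WT+AKI (log scale), for each of the 10 genes. Bars are 95% intervals for counting error, the solid line marks a ratio of 1, the dotted line 1.5 and the dashed line 2. The ratios run from 1.10 in *Clcn5* to 4.27 in *Lrp2*, and none of the intervals of the 5 lower genes reaches 1.5.

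A ratio of reads within a library does not depend on how the libraries were scaled. For each read of *Lrp2* there were 0.446 reads of *Cubn* in WT+AKI but 0.269 in TG+AKI, a change of 0.603-fold [0.588 to 0.618 by an exact conditional interval]. All 9 other genes were lower relative to *Lrp2* in TG+AKI, with intervals below 1. Each such change equals the gene's own ratio, TG+AKI over WT+AKI, divided by that of *Lrp2*. As *Lrp2* had the largest ratio of the group, the direction for all 9 was already given and is no separate finding. *Folr1* kept most after *Cubn*, at 0.562-fold [0.545 to 0.581], followed by *Amn* at 0.433-fold and *Lrpap1* at 0.411-fold. *Dab2*, *Myo6*, *Ehd1*, *Ocrl* and *Clcn5* lay between 0.319-fold and 0.258-fold. Per read of *Lrp2* there were 0.657 reads of its adaptor *Dab2* in WT+AKI but 0.210 in TG+AKI. Relative to *Cubn*, *Folr1* was close to even, at 0.576 and 0.537 reads per read of *Cubn*, a change of 0.933-fold [0.900 to 0.968]. *Amn* was lower relative to its partner *Cubn*, at 0.158 and 0.114 reads, a change of 0.718-fold [0.675 to 0.765].

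**Figure D3:**
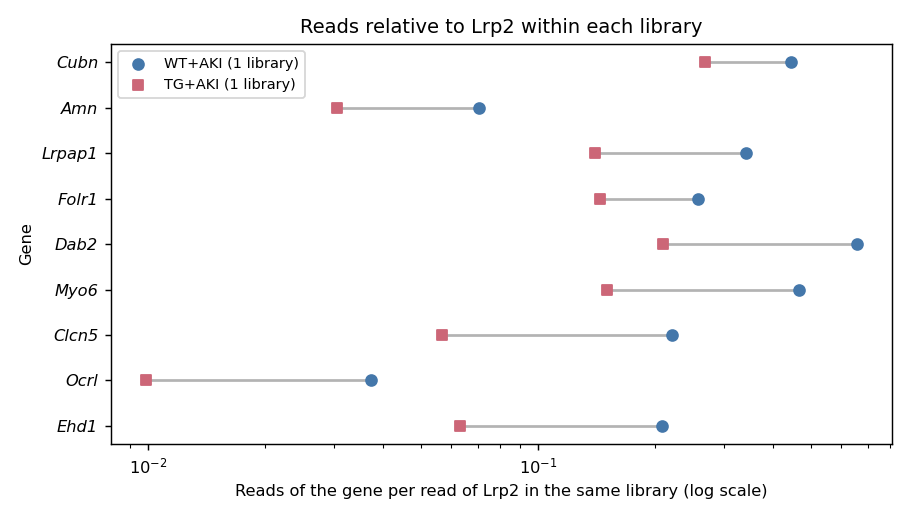
Reads of each gene per read of *Lrp2* in the same library (log scale), with a circle for WT+AKI and a square for TG+AKI. All 9 squares lie to the left of their circles, by least for *Cubn* (0.446 to 0.269) and by most for *Clcn5*. This direction follows from the ratio of *Lrp2*, TG+AKI over WT+AKI, being the largest of the group.

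Levels of different genes were compared per kilobase of the longest annotated transcript. In WT+AKI the order was *Folr1* (126 per kilobase), *Dab2* (90.8), *Lrpap1* (73.7), *Lrp2* (41.7), *Ehd1* (39.9), *Myo6* (38.0), *Amn* (26.8), *Cubn* (25.5), *Clcn5* (16.9) and *Ocrl* (4.58). *Amn* and *Cubn*, partners in one complex, did not differ beyond counting error there, with a ratio of 1.05 [0.9999 to 1.10]. With the median length of the annotated transcripts in place of the longest, *Amn* was below *Cubn*, at 44.5 and 55.0 per kilobase. In TG+AKI *Lrp2* stood second at 178 per kilobase, behind *Folr1* at 303 and ahead of *Lrpap1* at 129 and *Dab2* at 124. *Cubn* took the fifth place at 65.7, and *Amn* at 49.6 stood behind *Myo6* at 52.1 and *Ehd1* at 52.0, which could not be told apart. By the longest transcript *Clcn5* (18.7) and *Ocrl* (5.20) were last in both libraries. In WT+AKI 1320 genes had a higher level per kilobase than *Lrp2*, and in TG+AKI 308 did. The order thus depends on the length used. With the median length *Lrp2* came first in TG+AKI, at 836.1 per kilobase against 538.9 for *Lrpap1* and 532.0 for *Folr1*. In WT+AKI the median length put *Lrpap1* first at 307, and *Amn* at 44.5 fell below *Clcn5* at 46.5.

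Markers of proximal tubules, in which these genes act, differed in the same direction. All 20 genes of a list of proximal tubule markers were compared, of which 19 were higher in TG+AKI and 16 at least 2-fold higher, with a median difference of 1.68. The sodium–phosphate cotransporter *Slc34a1* had values of 764.5 and 5397. *Lrp2* lay 0.41 above the median of that list on the log2 scale, and the other 9 genes lay below it, *Cubn* by -0.32, *Folr1* by -0.42, *Amn* by -0.81 and *Lrpap1* by -0.88. The 5 adaptor, motor and endosomal genes lay from -1.23 to -1.55 below it. In whole kidney, fewer cells of a type and less RNA per cell cannot be told apart. Which cell types the reads of the 10 genes came from was not tested, so these distances are not ones within proximal tubule cells. Tubular injury markers ran the other way, with all 10 compared genes at least 2-fold lower in TG+AKI and a median of -3.49. *Havcr1* had values of 1169 and 2.78, and *Lcn2* 249.8 and 1.87. Genes of the early (S1) segment had a median of 1.34 over 7 genes and those of the late (S3) segment one of 0.94 over 7 genes. Thick ascending limb markers had a median of 1.27 over 5 genes, collecting duct markers 0.55 over 6, intercalated cell markers 0.41 over 6 and distal convoluted tubule markers 0.88 over 3. Podocyte and parietal markers (-0.06 over 7) and endothelial markers (-0.10 over 7) were near 0, and all 6 fibroblast and pericyte markers were lower. *Umod* had values of 1427 and 1921, and *Pecam1* 81.5 and 59.6.

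The other genes of protein uptake were described through 11 lists, with 200 of 204 genes listed in the table and 184 compared. The 2-fold limit was passed upward by 8.70% of these and downward by 4.35%, beside 5.74% and 7.12% of all compared genes, and their median difference was 0.17.

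The LDL receptor family was examined for the relatives of megalin. Of its 11 compared genes, 6 were higher and 5 lower, none passed 2-fold in either direction, and the median was 0.14. The highest were *Vldlr* (0.66), a lipoprotein receptor gene, and *Lrp3* (0.56). *Lrp1*, a large receptor of many cell types that also binds the chaperone, was lowest, with values of 150.0 and 83.6 (difference -0.84), followed by the Wnt coreceptor *Lrp5* (-0.34). All 11 lay below the difference of *Lrp2*. Among genes for partners and ligands of the megalin tail or receptor, 3 of 8 were higher, and the median was -0.26. *Magi1* (1.22) and *Mapk8ip1* (0.85) encode scaffold proteins and were highest. *Clu*, which encodes the megalin ligand clusterin and is also a tubular injury marker, had values of 884.7 and 114.4 (difference -2.94), and *Sh3bp4* was next (-0.80).

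Genes of the clathrin coat had a median of 0.01 over 23 genes, with 13 higher. *Dnajc6* (1.44), which encodes the uncoating factor auxilin, passed 2-fold, *Epn1* (0.63) came next, and *Bin1* (-0.96) and *Hip1r* (-0.56) were lowest. Genes of early endosomes and phosphoinositides had 14 of 21 higher and a median of 0.15. *Appl2* (1.12), a Rab5 effector, passed 2-fold, *Rab5c* (0.52) was next, and the lipid kinase gene *Pip5k1a* (-0.80) and *Hgs* (-0.38) were lowest. Recycling genes had a median of 0.17 over 23, with 14 higher. *Rab11fip3* had values of 200.3 and 540.5 (difference 1.43) and *Rab4a* had a difference of 0.69. *Micall1*, whose product works with EHD proteins on recycling tubules, was at least 2-fold lower (-1.16), and *Ehd4* was lower (-0.81), unlike its relative *Ehd1*.

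Endosomal acidification genes had a median of 0.24 over 23, with 21 higher. *Clcn6* (1.04), a relative of *Clcn5*, passed 2-fold, and the sodium–proton exchanger *Slc9a3* had values of 86.6 and 154.6 (difference 0.83). The proton pump subunit *Atp6v0a1* (-0.83) and *Clcn7* (-0.04) were the lower ones. Lysosomal genes had a median of 0.10 over 22, with 12 higher and 3 at least 2-fold lower. Among these 3 were the cathepsin genes *Ctss* (-1.39) and *Ctsc* (-1.38), while *Ctsh* (0.53) and *Ctsa* (0.52) were highest.

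Genes for the cargo and its use differed in both directions. Of 12 compared genes for vitamin carriers, their receptors and albumin recycling, 8 were higher, the 2-fold limit was passed by 3 upward and by 2 downward, and the median was 0.30. *Gc*, which encodes the vitamin D-binding protein taken up by megalin and cubilin, had values of 578.5 and 34.6 (difference -4.03), and *Cyp24a1*, which breaks down vitamin D, 454.4 and 140.2 (-1.69). *Ttr* (1.68), for transthyretin, and *Tcn2*, for the vitamin B12 carrier transcobalamin, were highest, *Tcn2* with values of 580.5 and 1478 (1.35). Folate genes had a median of 0.59 over 11, with 9 higher and 3 at least 2-fold higher. *Slc46a1* (1.14), for the proton-coupled folate transporter, was among these 3, beside the 1.26 of the receptor gene *Folr1*, and *Ggh* (-0.39) and *Ftcd* (-0.06) were lowest. *Folr2*, a folate receptor gene named after its values were seen, was too low to be compared, at 0.637 and 1.78 from 27 and 59 reads.

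Brush border and apical actin genes had 12 of 19 higher, 3 of them by 2-fold or more, and a median of 0.15. The peptidase genes *Ggt1* (1.43) and *Dpep1* (1.40) were highest, and the protocadherin gene *Cdhr2* (-1.08) and the motor gene *Myo1c* (-0.81) were lowest. Transcription factors of proximal tubules had a median of 0.46 over 11, with 9 higher and 2 at least 2-fold higher. *Hnf4a*, for hepatocyte nuclear factor 4 alpha, had values of 396.6 and 1072 (difference 1.43), and *Maf* had a difference of 1.43. *Ppara* (-0.36) and *Rara* (-0.30) were lower. The medians of 7 of the 11 lists changed sign when both libraries were scaled to equal totals. Those of the partner, vitamin, folate and transcription factor lists kept their sign.

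**Figure D4:**
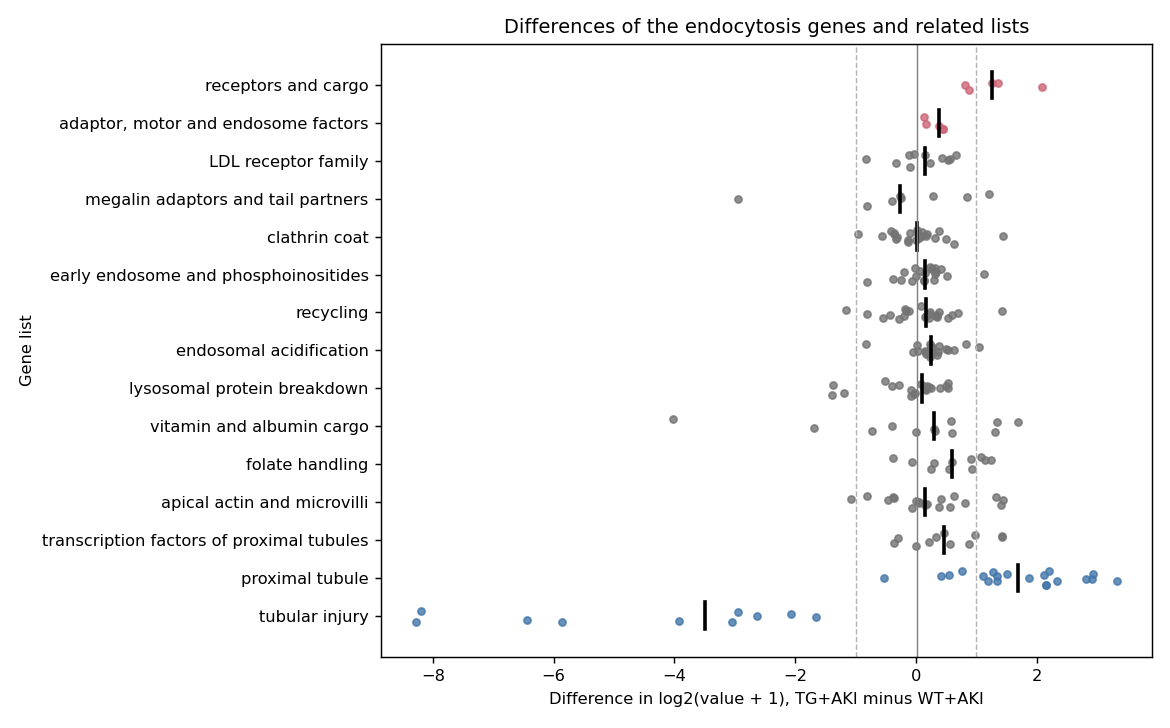
Difference in log2(value + 1), TG+AKI minus WT+AKI, of each compared gene, by list, with the endocytosis genes in red, related lists in grey and cell state markers in blue. Thick bars are medians, dashed lines mark 2-fold and the thin line is the median of all compared genes (0.01). The receptor and cargo genes (median 1.26) lie nearer to the proximal tubule markers (1.68) than the clathrin, endosome and lysosome lists do. Markers of the thick ascending limb (1.27) and distal convoluted tubule (0.88), not drawn here, were higher too, so this nearness is not particular to proximal tubules.

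**Figure D5:**
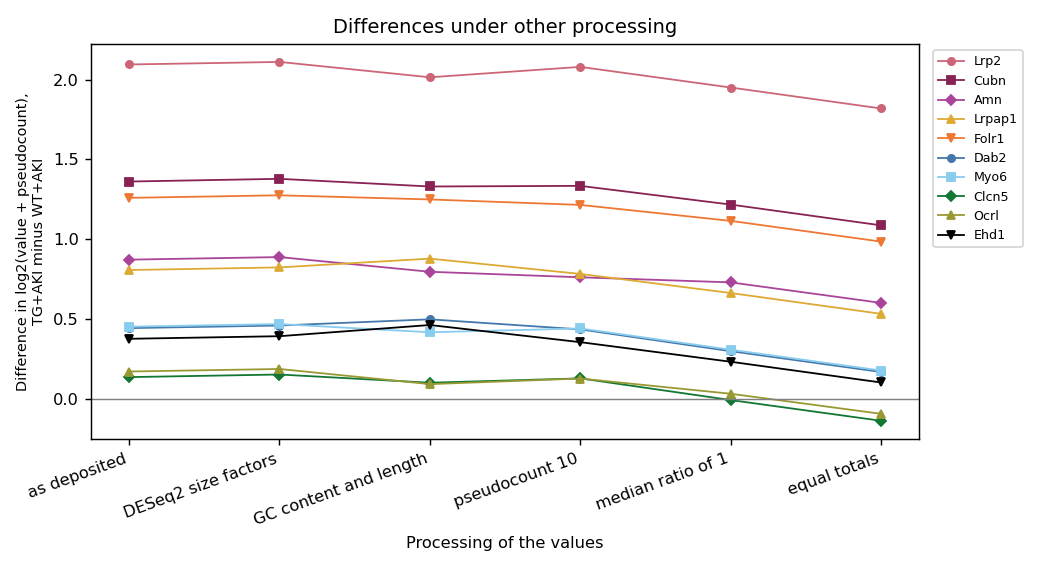
Difference between TG+AKI and WT+AKI of each of the 10 genes under the deposited scaling and 5 other ways to process the values. The lines run nearly in parallel, *Lrp2* stays on top between 1.82 and 2.11, and with equal totals *Clcn5* and *Ocrl* fall below 0, *Clcn5* also with a median ratio of 1.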

How the data were processed

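Libraries were made from whole kidney with a stranded mRNA kit (TruSeq), 1 library per group and 2 in all, with groups taken from the library names. Per the submitters' processing notes and the study's methods, the authors aligned reads with STAR 2.7.3a (mm10, that is GRCm38), used HTSeq for the gene counts and DESeq2 for normalization. The annotation and the strand setting are not given in the sources used here. The deposited table holds 1 normalized signal value per gene and library. All values (100%, within 0.01 of a whole number) were whole multiples of the smallest value of their column, so whole reads were recovered. The submitters' notes also name edgeR. The deposited scaling matched edgeR's factors by trimmed mean of M-values (TMM), 1.10 and 0.909, rather than DESeq2's size factors. The table lists only genes with at least 1 read in both libraries, and 1 read is worth 0.0236 (WT+AKI) and 0.0302 (TG+AKI).

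The comparison took log2(value + 1) of the genes that reached 10 in either library, and 2-fold and 1.5-fold served as limits of size, since 1 library per group allows no test of the conditions. The endocytosis genes and the lists were chosen with earlier results of these data known. Genes named from each list are the 2 with the largest and the 2 with the smallest difference, of which 1 is not reported here, nor is 1 marker gene, and *Folr2* and the promoter motifs were chosen after values were seen. List genes were matched by symbol, and 1 by synonym. Transcript length, GC content and overlaps came from GENCODE M21, in which 89.7% of genes had a transcript. Of the 100-base words of the 10 genes, 1.59% in *Cubn* and none in the others occurred in another gene. The procedures were tested on simulated data. Alternatives were other pseudocounts, scalings, filters and lengths, a correction for GC content and length, and, added after seeing the data, an exact binomial test. Python 3.11.15, scipy 1.17.1, R 4.3.3, edgeR 4.0.16 and DESeq2 1.42.0 were used.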

Additional observations from a re-analysis of the deposited data

How the results depend on the processing

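Of the 10 endocytosis genes, 8 kept their direction under all alternatives of pseudocount, scaling, filter and correction. A pseudocount, a filter or the TMM factors could not reverse a direction here. Only the other scalings and the correction for GC content and length could do so. With equal column totals *Clcn5* (-0.13) and *Ocrl* (-0.091) were lower in TG+AKI, and with a median ratio of 1 *Clcn5* was at -0.0045. These scalings shift all genes by 1 factor. The median difference of the 10 genes was 0.36 with equal totals, 0.49 with a median ratio of 1 and 0.81 with a filter of 50, which removes *Ocrl*. The proximal tubule median was 1.65 with a pseudocount of 10, 1.41 with equal totals, 1.54 with a median ratio of 1 and 1.73 after the correction for GC content and length. With equal totals 3 of the 11 pathway lists had a median above 0. Genes at least 2-fold higher and lower numbered 591 and 733 as reported, 372 and 408 with a pseudocount of 10, 359 and 1141 with equal totals, and 374 and 295 with a filter of 50, where the share of higher genes was 55.9%. Lower genes numbered 1150 without a filter or with a filter of 1. The binomial test on reads called 4265 higher and 4026 lower. Levels per kilobase of all 10 genes were higher with the median transcript length, and none could be lower, since a median length cannot exceed the longest. TMM scaling moved nothing, as the values already carry it. No paired analysis was possible because each group has 1 library. Among these genes *Ocrl* had the fewest reads, 904, and the widest interval relative to its ratio, and the spread between animals is unknown.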
